A study of Mus musculus with 19 samples.

Results

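Polycomb repressive complex 1 (PRC1) was followed through 10 of its subunit genes, Rnf2, Ring1, Cbx2, Cbx6, Cbx7, Phc1, Scmh1, Kdm2b, Pcgf3 and Pcgf5, chosen by name out of the 22521 mouse genes listed. All are autosomal, on chromosomes 1 (Rnf2), 17 (Ring1), 11 (Cbx2), 15 (Cbx6 and Cbx7), 6 (Phc1), 4 (Scmh1), 5 (Kdm2b and Pcgf3) and 19 (Pcgf5). RNA-seq was available for 17 libraries. In E6.5 extra-embryonic ectoderm (ExE), the trophoblast tissue that borders the epiblast, there were 4 female and 5 male maternal knockout (matKO) libraries, and 2 female and 2 male control (CTR) libraries. At the morula stage there were 2 matKO and 2 CTR libraries. Mothers of matKO embryos were Gdf9-Cre, Eed-fl/fl and mothers of CTR embryos were Eed-fl/fl without Cre, and all fathers were WT. Gdf9-Cre recombines in growing oocytes, so the embryos themselves receive an intact Eed allele from the father, and both groups share the floxed maternal background and the B6/129 x PWK cross. The labels do not say that libraries of a group came from separate litters, so p-values measure the spread between these libraries. Values of the 4 CTR ExE libraries are given as female 1, female 2, male 1 and male 2.

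PRC1 attaches a single ubiquitin to a lysine in the tail of histone H2A through the RING proteins RNF2 (RING1B) and RING1 (RING1A). Each RING protein pairs with a PCGF protein, which sets the kind of complex. Canonical complexes carry a CBX chromodomain protein, which binds the H3K27me3 mark that EED-containing PRC2 deposits, and a Polyhomeotic (PHC) protein. Variant complexes, such as those with PCGF3, PCGF5 or PCGF1 and KDM2B, reach chromatin without that mark. In the mouse placenta lineage Polycomb complexes are known for their part in non-canonical imprinting and in X inactivation.

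KDM2B binds unmethylated CG dinucleotides through a CXXC zinc finger and brings PCGF1 complexes to CpG islands. Start-site windows of the members with the largest stage differences below are therefore printed with each CG in capitals. RefSeq windows (GRCm38.p6, 250 bases before to 50 after an annotated start) matched 9 of the 10 members with 15 windows, Cbx2 having no entry. The motif CG reads the same on both strands. The median of all 32851 windows held 7 CG, and 13 of the members' 15 windows held more than that, as did 48.65% of all windows. The first line is Cbx7 (chr15:79932597-79932896, minus strand, 33 CG), the second a Scmh1 window (chr4:120405098-120405397, plus strand, 54 CG), and the others are an internal Kdm2b start (chr5:122900301-122900600, minus strand, 49 CG) and an upstream Kdm2b start (chr5:122989050-122989349, minus strand, 28 CG).
Cbx7: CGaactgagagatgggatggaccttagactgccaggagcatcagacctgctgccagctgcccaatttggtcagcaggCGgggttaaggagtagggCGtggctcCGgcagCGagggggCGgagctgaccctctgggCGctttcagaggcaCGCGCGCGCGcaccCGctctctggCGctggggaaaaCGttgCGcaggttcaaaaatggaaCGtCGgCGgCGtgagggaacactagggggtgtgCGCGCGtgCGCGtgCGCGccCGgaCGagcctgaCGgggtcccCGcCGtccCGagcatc
Scmh1: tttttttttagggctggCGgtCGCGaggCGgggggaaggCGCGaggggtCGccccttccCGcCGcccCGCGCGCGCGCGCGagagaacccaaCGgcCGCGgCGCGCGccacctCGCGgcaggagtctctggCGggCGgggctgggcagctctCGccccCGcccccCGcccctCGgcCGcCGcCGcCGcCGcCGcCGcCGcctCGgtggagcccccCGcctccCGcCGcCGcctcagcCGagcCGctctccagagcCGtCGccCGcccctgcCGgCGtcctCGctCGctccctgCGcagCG
Kdm2b internal start: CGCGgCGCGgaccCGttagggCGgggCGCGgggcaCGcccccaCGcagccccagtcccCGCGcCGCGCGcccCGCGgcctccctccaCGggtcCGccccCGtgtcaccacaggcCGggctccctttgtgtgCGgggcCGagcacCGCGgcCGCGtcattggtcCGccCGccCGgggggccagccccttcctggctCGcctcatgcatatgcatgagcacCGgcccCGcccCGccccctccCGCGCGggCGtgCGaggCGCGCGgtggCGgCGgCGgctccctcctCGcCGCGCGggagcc
Kdm2b upstream start: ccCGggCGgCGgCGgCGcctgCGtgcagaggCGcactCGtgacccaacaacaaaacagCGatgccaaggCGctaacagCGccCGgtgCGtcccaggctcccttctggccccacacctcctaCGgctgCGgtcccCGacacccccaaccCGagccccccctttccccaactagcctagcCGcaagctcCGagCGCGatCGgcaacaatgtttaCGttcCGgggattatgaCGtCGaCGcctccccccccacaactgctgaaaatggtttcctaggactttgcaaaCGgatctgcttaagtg
The share of all windows with at least as many CG was 8.56% for Cbx7, 0.347% for Scmh1, 1.02% for the internal and 14.2% for the upstream Kdm2b window. Phc1 had 9 CG in its only window, Pcgf3 23, Rnf2 30, Cbx6 31 and Ring1 37. Pcgf5 had windows of 35, 34 and 5 CG, and a second Scmh1 window held 0. Kdm2b has 4 windows, and the 2 not printed held 47 and 18 CG. The window of 47 CG (chr5:122900318-122900617) overlaps most of the printed internal one. The members' windows are therefore not all separate sites, and nothing is read from their count above the median. Binding and methylation were not measured at these windows.

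Total expression was deposited by the authors as RPKM (reads scaled by gene length and by library total), with unknown read depth. Each morula library had 3327373 to 5109159 reads assigned to an allele and each ExE library 4696355 to 9828943. The deletion was visible in the targeted gene: the maternal share of Eed was 16.02% and 20.9% in matKO morulae, against 37.7% and 46.0% in CTR morulae, and 11.1% to 17.1% in the 9 matKO ExE libraries, against 43.9% to 47.7% in the 4 CTR ExE libraries. Total Eed was not called at either stage. It was 145 and 138 RPKM in matKO morulae and 178 and 94.3 RPKM in CTR morulae. In ExE its log2 difference was -0.48 ± 0.18 (SE, limma adjusted p = 0.216). All 7 trophoblast markers of a list were above 0 in every ExE library, with Elf5 at 178 to 277 RPKM. However, matKO males 4 and 5 stood apart. They had 0.310 and 3.77 RPKM of Esrrb, a trophoblast stem cell factor, against 25.99 to 55.8 RPKM in the other 11. They had 0.0717 and 1.501 RPKM of Sox2 (9.17 to 23.1 RPKM in the other 11). Bmp4 was at 2.95 and 14.7 RPKM (85.5 to 196 RPKM) and Cdx2 at 1.25 and 1.76 RPKM (3.20 to 6.56 RPKM). Eomes was at 21.8 and 52.3 RPKM, and at 55.98 RPKM or more in the other 11. Elf5 lay within the range of the other 11. Tfap2c went the other way, with 197.5 and 129.2 RPKM in the pair and 38.9 to 109.5 RPKM in the other 11. The list summed to 408.6 and 407.07 RPKM in the pair. It summed to 453.5 to 702 RPKM in the other matKO libraries and 480 to 604 RPKM in CTR. The summed level of 5 ectoplacental cone and giant cell markers was 674 and 503.8 RPKM in matKO males 4 and 5. It was 55.8 to 255 RPKM in the other matKO libraries and 128 to 179 RPKM in CTR. Of those 5 markers, Prl3d1 was at 0 in all matKO males and all CTR libraries. Epiblast markers (5 genes) summed to 0.0292 and 2.02 RPKM in matKO males 4 and 5, against 2.98 to 15.3 RPKM in other matKO libraries and 4.92 to 20.2 RPKM in CTR. Visceral endoderm markers (6 genes) parted the pair, with a sum of 0.208 RPKM in matKO male 4 and 24.5 RPKM in matKO male 5. That sum was 1.77 to 5.91 RPKM in other matKO libraries and 3.27 to 3.99 RPKM in CTR. The share of these differences in any result below was not tested, and values without the pair are given where they matter.

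**Figure D1:**
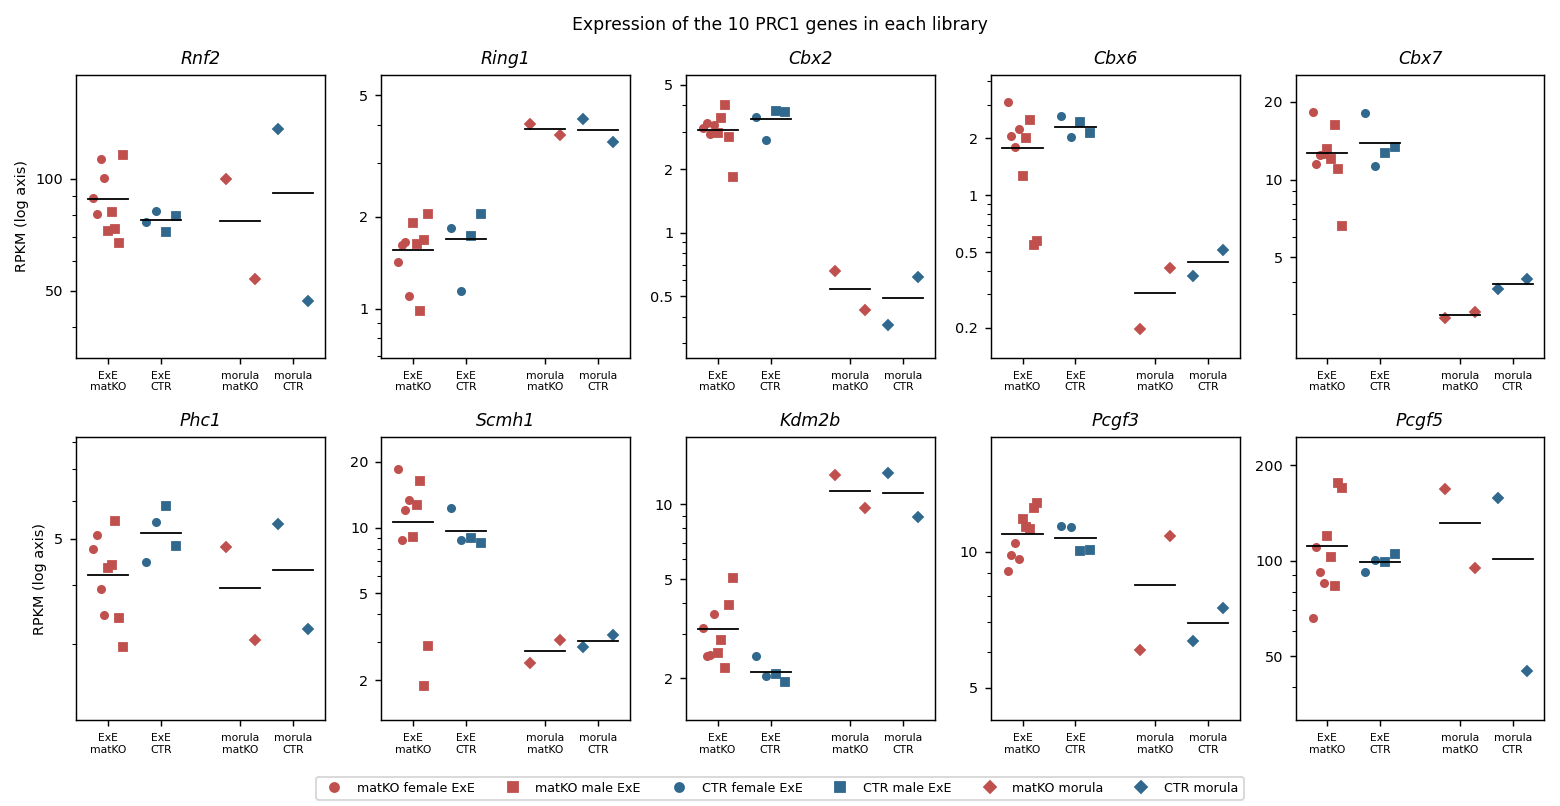
RPKM of each PRC1 gene (log axis) in every library, matKO in red and CTR in blue, circles for female and squares for male ExE, diamonds for morulae, with black bars at group means. Scmh1 and Cbx6 have matKO males 4 and 5 far below the other ExE libraries and Pcgf5 has them above, while Kdm2b is higher in all morula libraries than in all ExE libraries.

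By RPKM, most RNA of the RING genes was Rnf2 at both stages, and protein was not measured. Rnf2 had 67.1, 81.5 and 116 RPKM in matKO ExE (lowest, median, highest of 9) and 76.6, 82.0, 72.0 and 79.6 RPKM in CTR ExE. In morulae Rnf2 had 99.8 and 54.0 RPKM in matKO and 136 and 47.1 RPKM in CTR. The morula libraries of a group differed more from each other than the groups did. Ring1, the second E3 ligase, had 0.984, 1.63 and 2.04 RPKM in matKO ExE (lowest, median, highest) and 1.84, 1.14, 1.74 and 2.05 RPKM in CTR ExE, against 4.02 and 3.72 RPKM in matKO morulae and 4.18 and 3.52 RPKM in CTR morulae. All morula libraries lay above all ExE libraries for Ring1. Of the RPKM of the pair, Rnf2 made up 97.5% to 98.6% in CTR ExE libraries and 93.0% and 97.0% in CTR morulae.

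The stages were compared first within CTR. The morula and ExE tables were normalized separately, so these differences carry no test. A gene counted as higher or lower when the mean log2(RPKM + 1) differed by at least 1 and the CTR libraries of the stages did not overlap. By that measure 4 members, Cbx2, Cbx6, Cbx7 and Scmh1, were higher in ExE, against 24.7% of the 11537 genes compared, and Kdm2b alone was lower, against 19.1% of them. Cbx2 and Cbx6 averaged under 1 RPKM in CTR morulae and passed the filter (a mean of 1 RPKM or more at either stage) through ExE only, so nothing is read from their part in the count. The median difference was 0.40 for the members, Cbx2 and Cbx6 included, and 0.19 for all genes compared. Scaling both tables to the same median moved the median of all genes to -0.11, and the 5 members stayed past the criterion. Among matKO libraries Cbx2, Cbx6 and Cbx7 were higher in ExE and Kdm2b lower, against 24.0% of 11430 genes higher and 20.1% lower. Cbx2 and Cbx6 averaged 0.543 and 0.304 RPKM in matKO morulae and again passed the filter through ExE only. Nothing is read from their part in the matKO count either. With median scaling Cbx6 in matKO was at 0.92, under the criterion.

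Cbx7, a chromodomain subunit typical of stem cells, had 11.02 and 6.58 RPKM in matKO males 4 and 5 and 11.5 to 18.3 RPKM in the other matKO ExE libraries. CTR ExE libraries held 18.1, 11.3, 12.7 and 13.3 RPKM of Cbx7, against 3.75 and 4.1 RPKM in CTR morulae, a difference of 1.57 ± 0.24 (log2, pooled SD within stages). Cbx2, the chromodomain subunit whose protein compacts nucleosome arrays in vitro, had 3.54, 2.74, 3.77 and 3.71 RPKM in CTR ExE, against 0.365 and 0.618 RPKM in CTR morulae (1.57 ± 0.17). Cbx6 had 2.62, 2.04, 2.42 and 2.14 RPKM in CTR ExE, against 0.376 and 0.513 RPKM in CTR morulae (1.19 ± 0.11). Every ExE library of CTR exceeded every CTR morula for Cbx7. The same order held for Cbx2 and Cbx6, but nothing is read from it, as they passed the filter through ExE only. Scmh1, a relative of the fly Sex comb on midleg protein that joins PRC1 through its SAM domain, had 12.3, 8.81, 8.99 and 8.49 RPKM in CTR ExE and 2.84 and 3.22 RPKM in CTR morulae (1.39 ± 0.20). In matKO the Scmh1 difference was of like size (1.42 ± 0.90) but the stages overlapped, since matKO males 4 and 5 had 1.87 and 2.87 RPKM, against 2.39 and 3.04 RPKM in matKO morulae. Without that pair the matKO difference was 1.88.

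In the Polyhomeotic family, which links PRC1 particles through SAM domains, the larger share lay with a different gene at each stage. Phc1 made up 23.1% to 35.7% of the family's RPKM in CTR ExE and 69.8% and 79.3% in CTR morulae, while Phc2 made up 60.3% to 74.4% in CTR ExE and 19.6% and 25.1% in CTR morulae. Phc1 itself differed little, with 4.48, 5.42, 5.86 and 4.84 RPKM in CTR ExE and 5.36 and 3.23 RPKM in CTR morulae. Phc2 averaged 11.3 ± 2.22 RPKM in CTR ExE (SD, n = 4) and 1.24 ± 0.11 RPKM in CTR morulae (SD, n = 2).

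Kdm2b went the other way. It had 2.45, 2.04, 2.07 and 1.93 RPKM in CTR ExE and 13.3 and 8.87 RPKM in CTR morulae, a difference of -1.93 ± 0.21, and 2.2, 2.84 and 5.06 RPKM in matKO ExE (lowest, median, highest), against 13.1 and 9.62 RPKM in matKO morulae (-1.59 ± 0.30). The stages did not overlap in either genotype. Among all genes of a library, Kdm2b ranked at percentile 61.1 to 62.5 in CTR ExE and at percentiles 76.1 and 80.0 in CTR morulae, a measure that does not depend on scaling between the tables. Its PCGF partner Pcgf1 was also past the criterion, with 26.4 ± 1.86 RPKM in CTR ExE (SD, n = 4), although the CTR morulae held 155 and 35.9 RPKM.

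**Figure D2:**
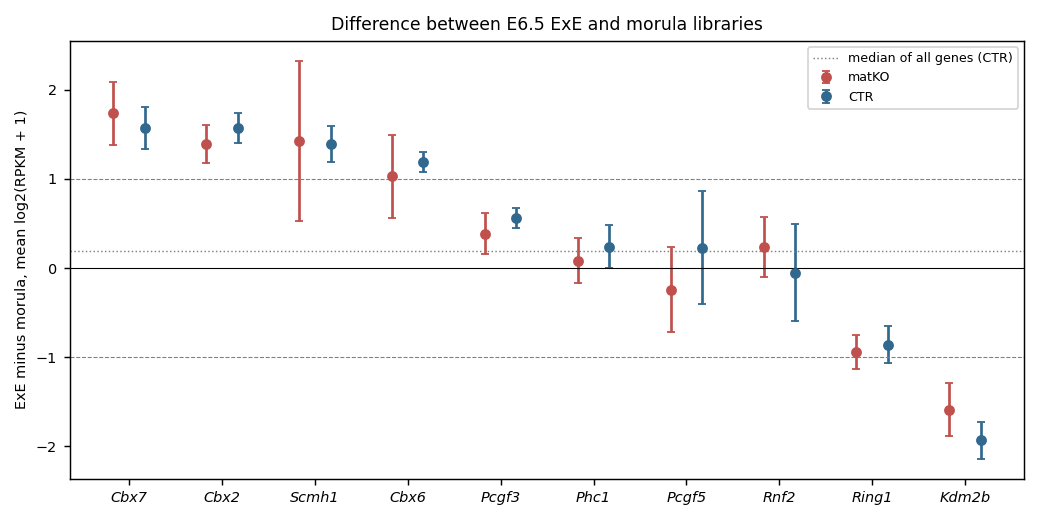
Difference of mean log2(RPKM + 1) between ExE and morula libraries for each PRC1 gene, matKO in red and CTR in blue, with bars for the pooled SD within stages. Dashed lines mark the criterion of 1 unit, and Cbx7, Cbx2, Scmh1 and Cbx6 lie above it and Kdm2b below it in CTR.

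Pcgf5 had the highest level of the 10 genes in CTR ExE, at 92.2, 100.3, 99.1 and 105.0 RPKM, and CTR morulae had 158 and 44.9 RPKM. Its share of the summed RPKM of the 6 PCGF genes was 44.9% to 46.6% in CTR ExE and 36.4% and 41.0% in CTR morulae. Pcgf3 had 11.4, 11.3, 10.02 and 10.1 RPKM in CTR ExE and 6.37 and 7.52 RPKM in CTR morulae, no overlap but a difference of 0.56, under the criterion. For Rnf2, Phc1 and Pcgf5 the direction between stages depended on which CTR morula was used. Without CTR morula 1 the differences were 0.71, 0.53 and 1.12, and without CTR morula 2 they were -0.81, -0.05 and -0.67. Ring1, at -0.86, passed 1 unit with median scaling (-1.13) or a pseudocount of 0.1 (-1.17). By mean level in CTR ExE the order was Pcgf5, Rnf2, Cbx7, Pcgf3, Scmh1, Phc1, Cbx2, Cbx6, Kdm2b and Ring1. Neighbouring genes overlapped between libraries for Cbx7 and Pcgf3, Pcgf3 and Scmh1, Cbx6 and Kdm2b, and Kdm2b and Ring1.

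Other genes of the complex were taken from a list of 32, of which 26 were compared between CTR stages. Of these, 6 were higher in ExE (Cbx8, Phc2, Pcgf2, Yaf2, Bcor and Tfdp1) and 4 lower (Pcgf1, Mga, Fbrs and Wdr5). Of all genes compared, 24.7% were higher and 19.1% lower. The median was 0.12, beside 0.19 over all genes compared. Pcgf2 averaged 0.445 RPKM in CTR morulae and passed the filter through ExE only, so nothing is read from its part in the count. Yaf2, a RYBP relative of variant complexes, averaged 59.3 RPKM in CTR ExE (53.0 to 62.3) and 8.01 RPKM in CTR morulae (7.89 and 8.12). Wdr5, shared with other chromatin complexes, averaged 36.3 RPKM in CTR ExE (33.7 to 37.9) and 134 RPKM in CTR morulae (89.2 and 179). Tfdp1, a partner of E2F6 in PCGF6 complexes, averaged 129 RPKM in CTR ExE (103 to 151) and 28.8 RPKM in CTR morulae (25.7 and 31.9). Of 11 genes for H2A deubiquitinases and readers of ubiquitinated H2A, 9 were compared. Foxk2 was higher in ExE and Mysm1 lower, beside the same shares of all genes compared. Mysm1, an H2A deubiquitinase, averaged 6.55 RPKM in CTR ExE (5.86 to 7.50) and 27.0 RPKM in CTR morulae (13.7 and 40.4).

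The effect of the maternal deletion on total RPKM was tested at each stage with limma, over every gene averaging 1 RPKM or more, and called at a Benjamini-Hochberg adjusted p under 0.05. In morulae 8 members were tested, Cbx2 and Cbx6 being below the filter, and none was called, nor was any of the 10329 genes tested (0%), with 92 genes and no member at an unadjusted p under 0.05. Cbx7 was the 1 of 8 tested members whose morula groups did not overlap, as was found for 19.1% of all genes tested, with 2.89 and 3.06 RPKM in matKO and 3.75 and 4.1 RPKM in CTR (limma log2 difference -0.31 ± 0.29, SE). Pcgf5 had the widest difference at 0.57 ± 0.66 (SE), from 168 and 94.7 RPKM in matKO morulae and 158 and 44.9 RPKM in CTR morulae. The Pcgf5 difference was 1.47 without CTR morula 1 and -0.32 without CTR morula 2. With a block for replicate number it was 0.57 ± 0.24 (SE, limma unadjusted p = 0.0158, adjusted p = 0.336), still uncalled. Kdm2b, with 13.1 and 9.62 RPKM in matKO and 13.3 and 8.87 RPKM in CTR, differed by 0.04 ± 0.35 (SE).

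In ExE all 10 members were tested and none was called, against 5 of 9915 genes (0.0504%). One member, Kdm2b, and 1592 genes had an unadjusted p under 0.05. Kdm2b had 2.2, 2.84 and 5.06 RPKM in matKO ExE (lowest, median, highest) and 2.45, 2.04, 2.07 and 1.93 RPKM in CTR ExE, a difference of 0.38 ± 0.16 (SE, log2(RPKM + 1), 13 libraries), with a limma adjusted p of 0.276. Of the 9 matKO libraries 7 lay above all 4 CTR libraries. Within each sex, all 5 matKO males lay above both CTR males and 3 of 4 matKO females above both CTR females. The share of all genes in such an order was not counted, so nothing is read from these counts. The highest were matKO males 5 and 4 with 5.06 and 3.93 RPKM, and without them the difference was 0.25 ± 0.11 (SE, limma adjusted p = 0.239).

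Phc1 had 2.97, 4.34 and 5.44 RPKM in matKO ExE (lowest, median, highest), against 4.48, 5.42, 5.86 and 4.84 RPKM in CTR ExE, a difference of -0.25 ± 0.13 (SE, limma adjusted p = 0.378), and -0.16 ± 0.11 without matKO males 4 and 5. In 6 of 9 matKO libraries Phc1 was below all CTR libraries, and here too the share over all genes was not counted. Cbx6 had 0.550, 2.00 and 3.10 RPKM in matKO ExE, against 2.62, 2.04, 2.42 and 2.14 RPKM in CTR ExE (-0.28 ± 0.21, SE, limma adjusted p = 0.528). Without matKO males 4 and 5, at 0.550 and 0.571 RPKM, the Cbx6 difference was -0.11 ± 0.14 (SE). Rnf2 differed by 0.17 ± 0.13, Ring1 by -0.08 ± 0.13, Cbx2 by -0.13 ± 0.13, Cbx7 by -0.13 ± 0.20, Pcgf3 by 0.01 ± 0.07 and Pcgf5 by 0.08 ± 0.19 (SE). Without matKO males 4 and 5 the differences were 0.13 for Rnf2, -0.12 for Ring1, -0.04 for Cbx2, -0.01 for Cbx7, -0.02 for Pcgf3 and -0.08 for Pcgf5, so that Pcgf3 and Pcgf5 changed sign. Over all 13 libraries their limma adjusted p lay between 0.541 and 0.953. The members' median was -0.06, beside 0.01 over all genes tested. None of the members is among the 154 female and 400 male ExE genes or the 178 raised and 270 lowered morula genes in the authors' deposited tables of changed genes.

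**Figure D3:**
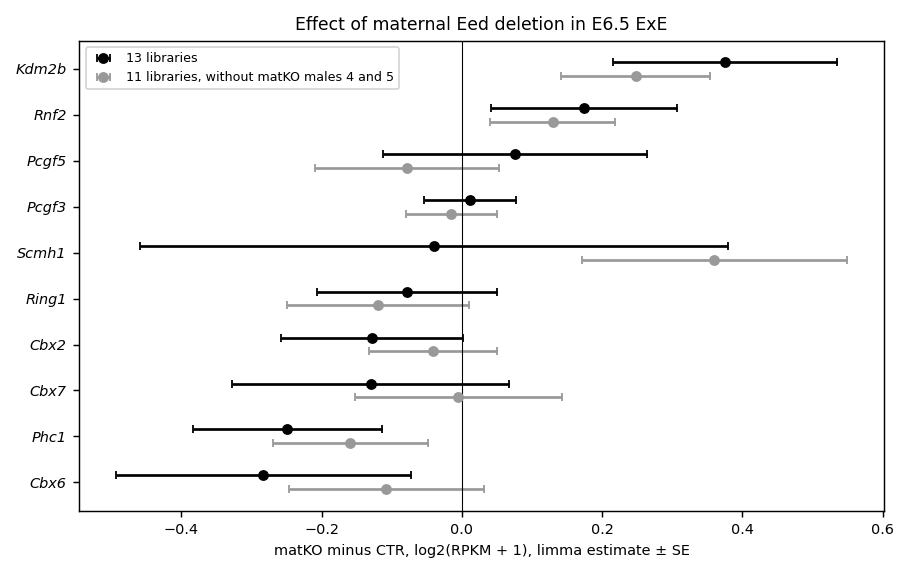
Limma estimates of the matKO minus CTR difference in log2(RPKM + 1) in ExE with SE bars, in black over 13 libraries and in grey over 11 without matKO males 4 and 5. Kdm2b is the highest at 0.38 and Cbx6 the lowest at -0.28, none passes the threshold, and Scmh1 moves to 0.36 without the pair.

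The SE of 0.42 for Scmh1 was the widest of the members. Scmh1 had 18.6, 8.79, 12.04 and 13.3 RPKM in matKO females and 9.06, 12.6, 16.3, 1.87 and 2.87 RPKM in matKO males, against 12.3 and 8.81 RPKM in CTR females and 8.99 and 8.49 RPKM in CTR males. Its difference was -0.04 over all libraries and 0.36 ± 0.19 without matKO males 4 and 5 (SE, limma adjusted p = 0.330). Pcgf5 was opposite in the same libraries, with 176 and 170 RPKM in matKO males 4 and 5, 66.0 to 120 RPKM in the other matKO libraries and 92.2 to 105.0 RPKM in CTR. In bulk ExE, fewer cells of a type and less RNA per cell cannot be told apart. Matched over the 13 ExE libraries, which share tissue and processing, Scmh1 and Pcgf5 had a Pearson r of -0.96 on log2(RPKM + 1), and -0.88 over the 11 without the pair. Cbx6 and Pcgf5 had r of -0.94, and -0.79 without the pair. Cbx6 and Scmh1 had r of 0.91, and 0.58 without the pair, and Phc1 and Kdm2b -0.87, and -0.72 without it. Across the 45 pairs of members these are descriptions without a test.

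**Figure D4:**
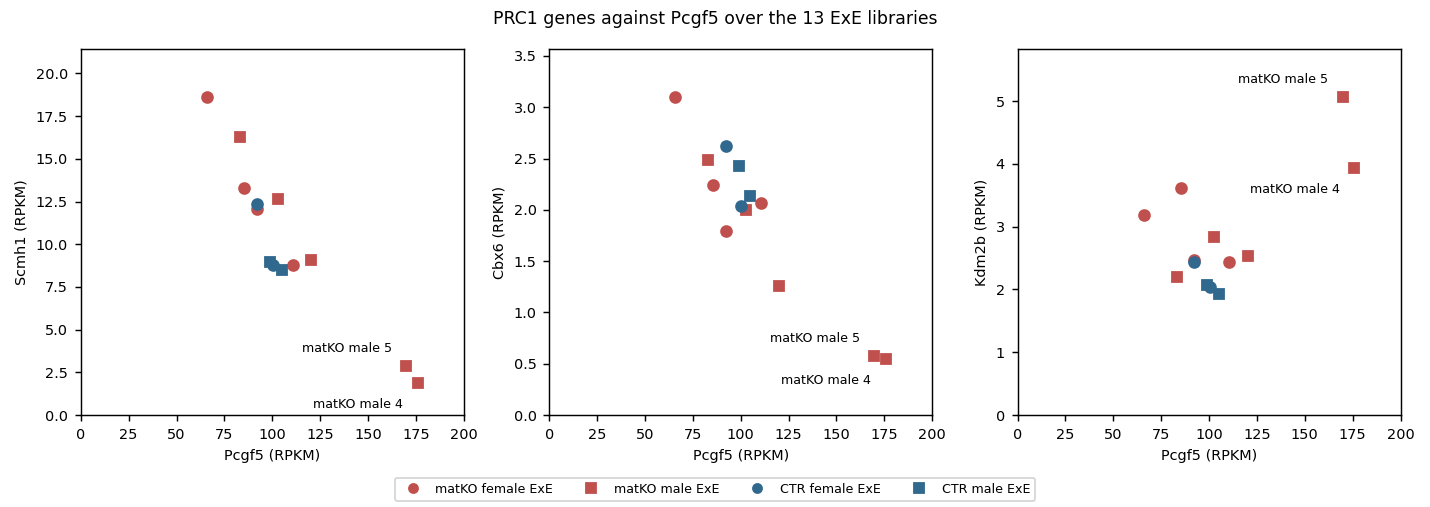
RPKM of Scmh1, Cbx6 and Kdm2b (vertical axes) against Pcgf5 RPKM (horizontal axes) in the 13 ExE libraries, matKO in red, CTR in blue, circles female, squares male. Scmh1 and Cbx6 are lower where Pcgf5 is higher, with matKO males 4 and 5 at the far end, and the 4 CTR libraries sit close together in all 3 panels.

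Genes whose ExE pattern was most like each member were looked for over the 13 libraries among 6929 genes averaging 5 RPKM or more. Klf5, a trophoblast and pluripotency factor, was nearest to Scmh1 (r = 0.98, 0.93 without matKO males 4 and 5). Tfap2c, a trophoblast factor, was nearest to Pcgf5 (0.95, 0.91 without the pair). Zfp771 was nearest to Cbx6 (0.97, 0.95 without the pair), Cd52 to Kdm2b (0.96, 0.88) and Mrpl54 to Phc1 (0.96, 0.92). Esco1 was nearest to Rnf2 (0.95, 0.91 without the pair), Cmtm7 to Cbx2 (0.92, 0.81) and Prickle3 to Cbx7 (0.91, 0.78). Vps4a was nearest to Pcgf3 (0.87, 0.75 without the pair) and Casd1 to Ring1 (0.78, 0.77). Scmh1 had 133 genes at r of at least 0.9, Cbx6 had 78 and Ring1 had 0.

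Female and male ExE were compared by the difference of their matKO effects. None of the 9915 genes was called by limma (0%), with 170 at an unadjusted p under 0.05. Pcgf3 was the only member among those 170. It had 9.07, 9.86, 10.5 and 9.62 RPKM in matKO females and 11.4 and 11.3 RPKM in CTR females, and 11.8, 11.3, 11.2, 12.5 and 12.8 RPKM in matKO males and 10.02 and 10.1 RPKM in CTR males. All matKO females were below both CTR females and all matKO males above both CTR males, and 14 of the 9915 genes (0.141%) had the sexes apart in opposite directions in this way. The female minus male effect was -0.43 ± 0.13 (SE, limma adjusted p = 0.990), and -0.37 ± 0.13 without matKO males 4 and 5. For Pcgf5 the value was -0.43 ± 0.38 (SE), and -0.13 ± 0.26 without the pair.

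Of the other PRC1 genes 26 were tested for total expression at each stage, and none was called at either, with 2 at an unadjusted limma p under 0.05 in ExE and 0 in morulae. Of the deubiquitinase and reader genes 9 were tested at each stage and none was called or had an unadjusted p under 0.05.

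Allelic signal was next compared between the maternal B6/129 and the paternal PWK allele. Because the cross was made in a single direction, parent of origin and strain cannot be told apart. In morulae 6 members had a mean of at least 20 allelic reads (Rnf2, Ring1, Cbx2, Kdm2b, Pcgf3 and Pcgf5), and edgeR called 1 of them, Kdm2b, in CTR, against 22.0% of 7872 genes. In ExE all 10 were tested on allelic RPKM with limma, and again Kdm2b alone was called in CTR, against 38.3% of 9666 genes.

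Kdm2b was read almost entirely from the maternal allele at both stages and in both genotypes. In matKO morulae the maternal share was 94.4% of 124 reads (95% Wilson interval 88.8% to 97.2%) and 98.1% of 268 reads (95.7% to 99.2%), and in CTR morulae 96.3% of 189 reads (92.6% to 98.2%) and 96.5% of 256 reads (93.5% to 98.1%). These intervals cover counting error only, since the reads carry no molecular identifiers. In matKO ExE it was 87.3%, 93.2% and 100% of allelic RPKM (lowest, median, highest of 9), and in CTR ExE 95.4%, 96.0%, 100% and 92.3%. All 17 libraries lay far from an even split, and the genotypes overlapped at both stages. The CTR log2 ratio of maternal to paternal signal was 4.72 in morulae (edgeR adjusted p = 0.000193) and 2.58 ± 0.28 in ExE (SE, limma adjusted p = 1.05e-05, ratio of RPKM + 1). These ratios are on unlike scales, and no stage difference is read from them. Paternal Kdm2b averaged 0.229 allelic RPKM in CTR ExE, so the added 1 makes the ExE ratio smaller. Under the alternatives the ExE ratio ranged from 2.21 to 4.47. Over all libraries 28 of 837 morula reads and 65 of 874 ExE reads were paternal. A share at least as high in every library was found for 55 of 7624 autosomal genes in morulae (0.721%) and for 83 of 9293 in ExE (0.893%), while the median autosomal gene had 51.3% in CTR morulae and 49.9% in CTR ExE. The reads came from 5 variants in morulae and 4 in ExE, on chromosome 5 (mm9), and cover part of the gene.

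Of the other members, Rnf2 had 45.4% and 39.9% maternal reads in matKO morulae and 39.3% and 44.7% in CTR morulae, from 593 to 1322 reads. Its CTR ratio of -0.47 missed the threshold (edgeR adjusted p = 0.0784) and passed it with TMM factors (-0.59, edgeR adjusted p = 0.0342) or without CTR morula 2 (-0.62, edgeR adjusted p = 0.0396). In ExE Rnf2 had 45.6%, 50.3% and 55.5% in matKO (lowest, median, highest) and 52.2%, 52.3%, 50.1% and 51.8% in CTR. Pcgf5 had 49.0% and 48.0% in matKO morulae and 45.7% and 44.7% in CTR morulae, and 42.9%, 49.3% and 53.0% in matKO ExE and 49.9%, 48.0%, 50.6% and 51.9% in CTR ExE. Cbx6 had 33.1%, 41.2% and 55.0% in matKO ExE and 33.4%, 48.9%, 39.5% and 41.1% in CTR ExE, with a CTR ratio of -0.40 ± 0.18 (SE, limma adjusted p = 0.0918). It passed without CTR female 2 (-0.59, limma adjusted p = 0.0490). Cbx7, Phc1 and Scmh1 had 2 to 22 allelic reads per morula library, too few for a test there.

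**Figure D5:**
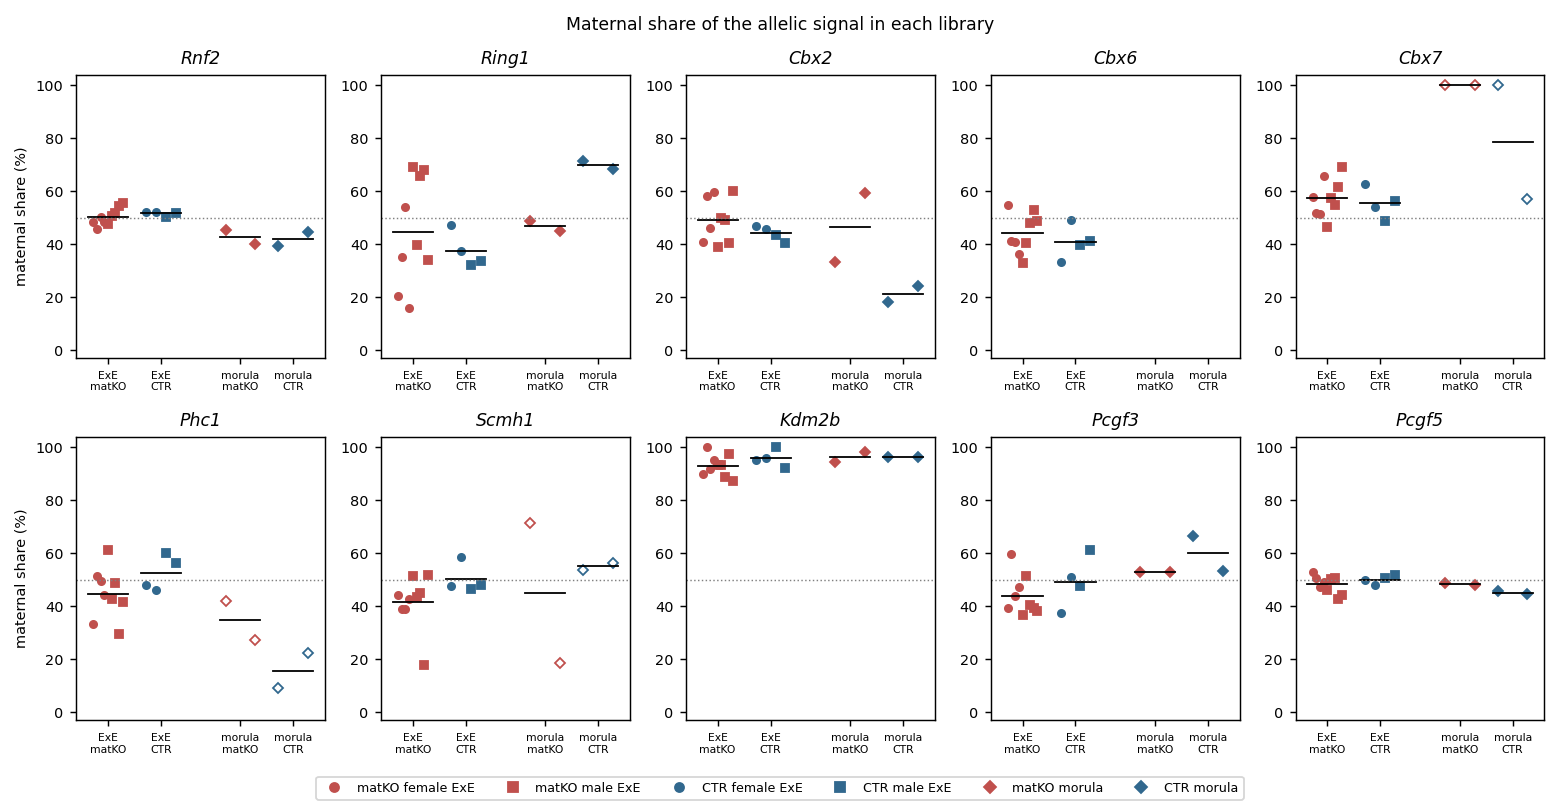
Maternal share of allelic signal for each PRC1 gene in every library, from allelic RPKM in ExE and reads in morulae, with matKO in red and CTR in blue and black bars at group means. Open diamonds mark genes with a mean under 20 morula reads, Cbx6 has no morula value, and the dotted line is at 50%. Kdm2b lies at 87.3% or more in all libraries.

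Maternal Eed deletion changed the allelic ratio of no member past the threshold. In morulae 0 of 6 members were called by edgeR, or by DESeq2 (Cbx2 had no adjusted p there), against 2 of 7872 genes with edgeR (0.0254%) and 314 genes at an unadjusted p under 0.05. Ring1 was the only member among those 314, with 48.9% of 45 and 44.9% of 78 reads maternal in matKO morulae, against 71.4% of 42 and 68.3% of 63 reads in CTR morulae, a difference of -1.39 in the log2 ratio (edgeR adjusted p = 1). The groups did not overlap for 4 of the 6 members (Ring1, Cbx2, Pcgf3 and Pcgf5), beside 31.4% of all genes tested. For Ring1 the 95% Wilson interval of matKO morula 1 (35.0% to 63.0%) overlapped those of CTR morula 1 (56.4% to 82.8%) and CTR morula 2 (56.0% to 78.4%), and that of matKO morula 2 ended just under them at 55.9%. In ExE Ring1 had 16.01%, 39.7% and 69.1% in matKO and 47.1%, 37.5%, 32.2% and 33.7% in CTR, from 16 to 47 reads per library. Cbx2 had 33.3% of 15 and 59.4% of 32 reads in matKO morulae, against 18.2% of 11 and 24.4% of 41 reads in CTR morulae (1.68, edgeR adjusted p = 1).

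In ExE 0 of 10 members were called by limma, none had an unadjusted p under 0.05, and 33 of 9666 genes were called (0.341%), with 903 at an unadjusted p under 0.05. Eed itself was called in ExE at -2.34 ± 0.13 (SE, limma adjusted p = 1.71e-06), but not in morulae, at -1.65 (edgeR adjusted p = 0.404). Scmh1 had the widest difference of a member in ExE, -0.39 ± 0.22 (SE, limma adjusted p = 0.629). Its maternal share was 17.8%, 43.5% and 51.8% in matKO and 47.7%, 58.7%, 46.5% and 48.0% in CTR, from 16 to 275 reads per library. Phc1 had a difference of -0.34 ± 0.23 and Kdm2b of -0.11 ± 0.34 (SE), and both overlapped between genotypes. The members' median was -0.09, beside -0.01 over all genes tested.

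Among the other PRC1 genes, 2 of 16 tested had unequal alleles in CTR morulae, against 22.0% of 7872 genes. In CTR ExE 6 of 22 tested had unequal alleles, against 38.3% of 9666 genes. With the maternal deletion 0 of them changed at either stage by edgeR or limma, with none at an unadjusted p under 0.05. Pcgf6, of the E2F6 and MGA complex, had a mean of 57.9% ± 2.5 maternal in matKO ExE (SD, n = 9) and 58.1% ± 2.38 in CTR ExE (SD, n = 4), with a CTR ratio of 0.47 ± 0.07 (SE, limma adjusted p = 0.000244). Tfdp1 had 37.3% ± 2.16 in matKO ExE (SD, n = 9) and 40.8% ± 2.98 in CTR ExE (SD, n = 4), with a CTR ratio of -0.53 ± 0.08 (SE, limma adjusted p = 0.000181). X-linked Bcor, a PCGF1 partner, had 85.4% ± 20.4 in matKO ExE (SD, n = 9) and 99.6% ± 0.87 in CTR ExE (SD, n = 4), over both sexes. Males carry the maternal X only, so their share is set in advance, and the groups differ in their mix of sexes. No effect of the deletion is read from these Bcor values. Csnk2a1, Cbx3 and Skp1a were also called, with mean maternal shares of 99.1%, 0% and 68.4% in CTR ExE, but have near-identical copies elsewhere in the genome, so their shares are uncertain. Of the deubiquitinase and reader genes, Usp16 was called at both stages, with 56.2% ± 2.1 in matKO ExE (SD, n = 9) and 57.1% ± 2.09 in CTR ExE (SD, n = 4), Mysm1 in CTR morulae (68.5%) and Dnajc2 in CTR ExE (44.7%).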

How the data were processed

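RNA-seq of 17 libraries was used, and 2 CUT&RUN samples were not analysed here. Libraries were made with SMARTer Ultra Low Input and Nextera XT kits, per the labels' protocols. HISAT2 2.1.0, Cufflinks 2.2.1 and build mm9 stand in the submitters' processing notes, with no roles given. The authors deposited RPKM for all genes, allelic RPKM, and allelic read counts over sequence variants, with each stage in separate tables. The log2 values and p-values of the authors' deposited tables of changed genes were used only to look up members, and 21 per-sample columns there were not used. The listed gene length equals end minus start of a partial interval, and its Spearman correlation with reads per RPKM was 0.312 over 4483 genes, so the length behind the RPKM is not given by it and levels between genes rest on the authors' length.

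Members and gene lists were chosen with earlier results of these data known. All 10 members were named throughout, with up to 6 called genes per list by smallest p. Total RPKM was tested with limma 3.58.1 under R 4.3.3, with a variance trend, after adding 1 and taking log2, where a gene averaged 1 RPKM or more. All ExE groups shared a single fit. Fold changes on that scale understate those of low genes. Morula allelic counts were tested with edgeR 4.0.16 (library as block, allele and allele by group, mean of at least 20 reads). In ExE, 10 of 13 allelic count columns matched the total RPKM of another library than the one they name, all within genotype. The main ExE allele tests therefore used limma on log2 ratios of allelic RPKM + 1. ExE counts served only for read totals and for an alternative edgeR run by genotype alone. DESeq2 1.42.0, other scalings, pseudocount 0.1, other filters, omission of single libraries and a block for replicate number served as alternatives. The fits were tested on simulated data. Tables and figures were made in Python 3.11.15 with numpy 2.4.6, pandas 2.3.3, matplotlib 3.10.9 and scipy 1.17.1.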

Additional observations from a re-analysis of the deposited data

Results flagged for a closer look

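Single libraries far from the rest of their group were looked for in 40 groups of 4 or 5 ExE libraries (total RPKM and maternal share of each member), where chance marks about 1 group in 20. Cbx7 had 18.3 RPKM in matKO female 1, against 11.5 to 12.5 RPKM in the other 3 matKO females. The maternal share of Scmh1 was 17.8% in matKO male 4, against 43.5% to 51.8% in the other 4 matKO males. Total Scmh1 was lowest in the same library, at 1.87 RPKM. ExE libraries held 16 to 275 allelic reads of Scmh1, so this share may rest on few reads. The maternal share of Pcgf3 was 51.6% in matKO male 2, against 36.6% to 40.5% in the other 4 matKO males. The matKO effect on Pcgf3 total RPKM differed between the sexes, with a female minus male value of -0.43 on the log2 scale at an unadjusted limma p of 0.00702, and did not pass the correction over all genes (limma adjusted p = 0.990).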

How the results depend on the processing

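No member's call on the maternal deletion, for total RPKM or allelic ratio, changed under any alternative run, and Kdm2b remained called for unequal alleles under all of them at both stages. Of the values of single genes under the alternatives, 1277 kept their side of the threshold or moved by less than the replicate spread, 7 became called and 37, all of them stage differences, moved by more. Estimates that stayed uncalled could still change sign, as Scmh1 did in 6 of 20 alternatives for total RPKM in ExE. In morulae total RPKM had 0 calls, 164 with a replicate block and 1 to 16 without a single library. In ExE total RPKM had 5 calls, 10 with pseudocount 0.1, 38 with no filter, 11 from 5 RPKM up, 15 with median and 13 with quantile scaling, 45 with a replicate block, 69 without matKO males 4 and 5, and 3 to 17 without a single library. The sex difference had 0 calls, 1 with no filter, 4 with a replicate block and 0 to 1 without a single library. The morula allelic change had 2 calls, 14 with DESeq2, 4 with no filter, 0 with limma on allelic RPKM, 43 with a replicate block and 0 to 123 without a single library. The morula allele difference in CTR had 1733 calls, and 948 to 1653 without a single library. The ExE allelic change had 33 calls, 20 with no filter, 6 with edgeR on counts by genotype alone, 17 with a replicate block and 10 to 96 without a single library. The causes were not tested.

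Same-numbered morula libraries deviated together (r = 0.702), but with 2 pairs this does not show pairing, and in ExE r was -0.04 to 0.06. With the replicate block Rnf2 also passed for unequal alleles in CTR morulae (-0.48, edgeR adjusted p = 0.0282) and Eed for its morula allelic change (-1.67, edgeR adjusted p = 0.0109), as Eed did without CTR morula 1 (-1.90, edgeR adjusted p = 0.00440). With edgeR on ExE counts Rnf2 passed at 0.24 (edgeR adjusted p = 0.0482). Morula comparisons have 2 libraries a group and total RPKM has unknown depth. Low allelic counts limit Ring1, Cbx2, Cbx7, Phc1 and Scmh1 in morulae.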
